A study of Mus musculus with 24 samples.

Results

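Genes of sterol and fatty acid synthesis were followed by RNA sequencing through the conversion of amniotic cells to endothelial-like cells and in endothelial cells (ECs) of adult mice. The genes are 31 named enzymes, regulators and carriers of these pathways, listed by name and not by their values. Of these, 30 were among the 22282 genes measured and all 30 passed the filter on low values, whereas Hmgcs1 was not analysed here. There were 24 libraries, 3 in each of 8 groups. MACs are amniotic fluid cells of C57BL/6J embryos at E11.5 to E13.5, of mixed sex, which the study's methods culture in AmnioMAX medium before conversion. RACVECs are MACs that carry lentiviral Etv2, Erg and Fli1, driven by the PGK promoter, and were grown in EC medium with serum and the TGFβ receptor inhibitor SB431542. Akt-MACs and Akt-RACVECs carry in addition a lentivirus for myristoylated Akt1, a form of the kinase that is always active. Sox17-RACVECs are RACVECs with lentiviral Sox17, selected with puromycin. Akt-LECs and Akt-liver ECs are adult lung and liver ECs that were taken up with CD31 beads, transduced with myristoylated Akt, cultured and sorted again. LSECs are liver ECs sorted directly from the organ after labelling of the vessels, with no culture and no transgene. Both conditions, culture and myristoylated Akt, therefore separate Akt-liver ECs from LSECs, and their parts cannot be told apart. The study's methods treat each separate isolation of MACs as a replicate, and for the groups of adult ECs this is not stated, so that the p-values measure the spread between these libraries.

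Cholesterol is built from acetyl-CoA through mevalonate, isoprenoids, squalene and lanosterol, and fatty acids are built from acetyl-CoA through malonyl-CoA. Both routes are under the control of the SREBP transcription factors, encoded by Srebf1 and Srebf2, which are held in the endoplasmic reticulum by INSIG proteins when sterols are plentiful and are cut free in the Golgi when sterols are scarce. Endothelial cells make these lipids for new membrane, and can also take them up from lipoproteins in blood or serum. The 30 genes comprised 6 of the mevalonate pathway, 11 of the steps from squalene to cholesterol, 9 of fatty acid synthesis and 4 regulators or carriers.

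The promoters of 5 of the genes called below are shown because SREBPs act together with the factor NF-Y, which binds the letters CCAAT. The 5 are a choice, and all hold CCAAT. Lpin1 and Elovl6, which are also called below, have none in the sequences used, and Me1 has 0 and 1 in its 2 promoters. A link between CCAAT and the differences was not tested. They are RefSeq sequences of 300 bases of build GRCm38.p6, from 250 bases before the start of the gene to 50 after it, with CCAAT on either strand (ATTGG on the other) in capitals. Matches that overlap are printed as 1 run of capitals. Fasn lies at chr11:120824498-120824797 on the minus strand, Lss at chr10:76531355-76531654 on the plus strand, Mvd at chr8:122443373-122443672 on the minus strand, Ebp at chrX:8193463-8193762 on the minus strand and Hsd17b7 at chr1:169969156-169969455 on the minus strand.
Fasn: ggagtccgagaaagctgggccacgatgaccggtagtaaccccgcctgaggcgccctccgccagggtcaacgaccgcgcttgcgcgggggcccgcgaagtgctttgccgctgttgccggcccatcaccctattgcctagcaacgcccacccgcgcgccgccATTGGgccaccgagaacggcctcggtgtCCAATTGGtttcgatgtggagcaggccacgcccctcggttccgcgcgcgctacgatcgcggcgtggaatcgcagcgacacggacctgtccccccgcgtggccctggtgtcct
Lss: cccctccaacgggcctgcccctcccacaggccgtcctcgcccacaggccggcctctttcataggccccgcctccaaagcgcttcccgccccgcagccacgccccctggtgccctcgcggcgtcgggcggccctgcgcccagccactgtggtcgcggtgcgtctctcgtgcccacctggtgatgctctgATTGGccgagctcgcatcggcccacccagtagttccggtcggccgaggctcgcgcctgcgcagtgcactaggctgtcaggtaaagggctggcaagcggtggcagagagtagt
Mvd: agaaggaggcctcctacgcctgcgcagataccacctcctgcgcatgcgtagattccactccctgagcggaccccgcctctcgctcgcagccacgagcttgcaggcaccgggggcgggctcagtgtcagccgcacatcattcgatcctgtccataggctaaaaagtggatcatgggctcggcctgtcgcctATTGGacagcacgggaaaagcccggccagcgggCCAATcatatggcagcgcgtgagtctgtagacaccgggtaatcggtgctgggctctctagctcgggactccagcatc
Ebp: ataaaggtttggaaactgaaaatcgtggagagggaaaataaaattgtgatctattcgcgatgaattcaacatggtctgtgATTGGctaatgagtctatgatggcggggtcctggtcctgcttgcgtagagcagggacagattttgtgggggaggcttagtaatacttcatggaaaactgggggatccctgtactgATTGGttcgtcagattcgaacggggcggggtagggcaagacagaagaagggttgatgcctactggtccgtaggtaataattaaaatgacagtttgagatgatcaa
Hsd17b7: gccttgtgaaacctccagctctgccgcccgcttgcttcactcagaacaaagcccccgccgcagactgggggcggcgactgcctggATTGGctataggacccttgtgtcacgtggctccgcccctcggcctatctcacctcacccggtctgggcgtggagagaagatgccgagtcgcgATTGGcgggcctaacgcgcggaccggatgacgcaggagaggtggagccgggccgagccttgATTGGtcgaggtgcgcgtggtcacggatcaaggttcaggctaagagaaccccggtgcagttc
CCAAT was found in 22 of the 31 promoters listed for 25 of the genes, Hmgcs1 included, that is in 71% of them and in 37.4% of all 32851 promoters. The longer CTGATTGG, which contains it, was in 7 of the 31, those of Ebp, Idi1, Lss, Mvk, Sc5d, Srebf1 and Tm7sf2, and in 4.1% of all. The E-box CACGTG was in 4 of the 31 and in 7.15% of all. TCACNCCAC, a form of the sterol response element, was in 1 of the 31, that of Hmgcs1, and in 1.24% of all. Acat2, Acaca, Elovl6 and Lpin1 had no CCAAT in this window. Sqle, Fdft1, Fdps, Scd1, Scd2 and Stard4 were not among the promoters used.

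Expression was measured as FPKM, fragments per kilobase of transcript scaled to the library, which can be compared between genes. Depth is unknown, since read numbers were not used, and the precision is that between libraries. Over the 24 libraries, Scd2, a stearoyl-CoA desaturase that places a double bond in fatty acids, had the highest mean of the 30 genes at 566.0 FPKM, followed by Acly at 271.8 and Scd1 at 208.4. Acaca, the acetyl-CoA carboxylase that makes malonyl-CoA, had the lowest at 13.2. The widest range was that of Scd1, from 6.7 in Akt-liver EC 2 to 1739.5 in MAC 2, and the narrowest that of Acly, ATP citrate lyase, from 178.1 in MAC 1 to 464.9 in MAC 2.

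**Figure D1:**
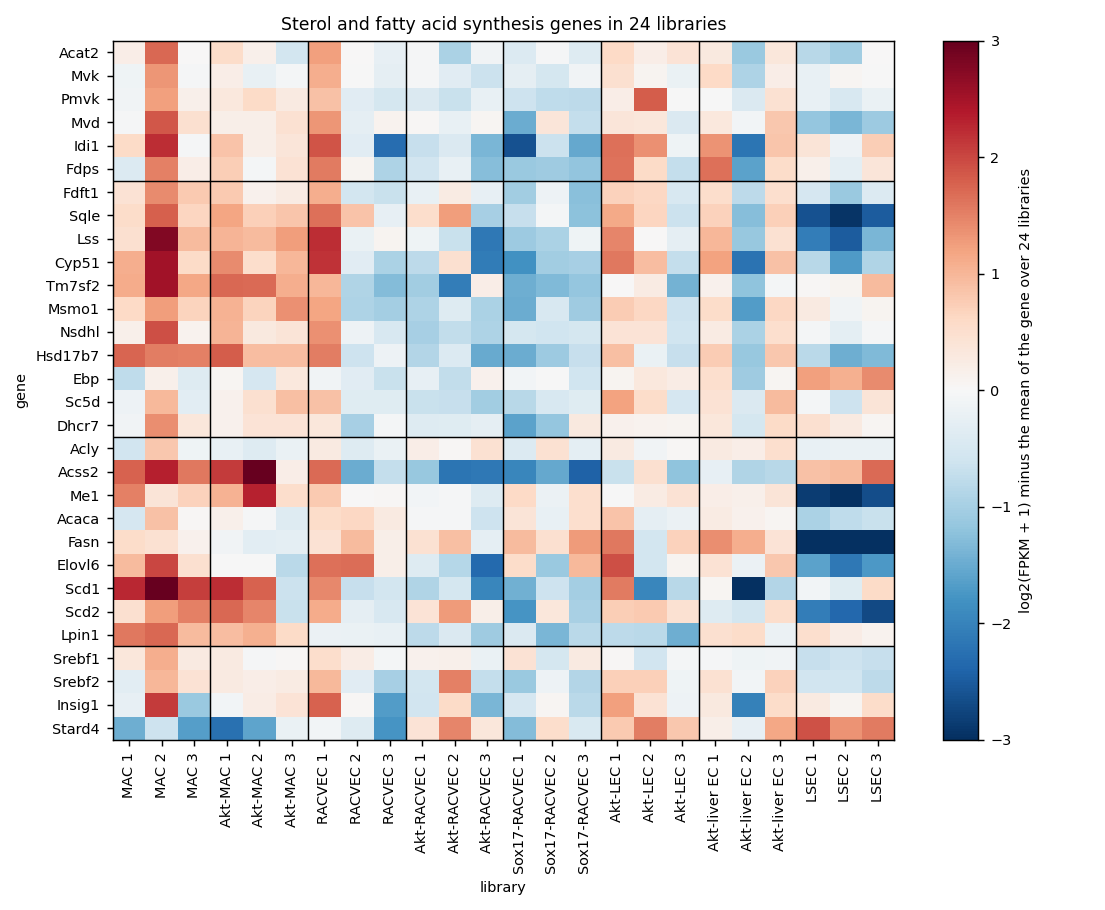
Expression of the 30 genes (rows) in the 24 libraries (columns) as log2(FPKM + 1) minus the mean of the gene, with colours ending at 3 and -3. The darkest columns of red are MAC 2 and RACVEC 1, and Fasn, Me1, Sqle, Scd2 and Lss are blue in all 3 LSEC libraries.

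Some libraries hold RNA that their labels do not name. Summed FPKM of 9 macrophage genes was 965.9, 14790.0 and 45290.0 in Akt-MACs and at most 14.7 in MACs. MAC 2 had 4541 FPKM of 6 adipocyte genes, where MAC 1 had 95.9 and MAC 3 had 0. The LSEC libraries had 2989 to 16920.0 FPKM of 13 hepatocyte genes, highest in LSEC 3, and 15990.0 to 26260.0 of macrophage genes, and Akt-liver ECs had 33.5 to 170.4 and 0 to 1252 of these. Akt-liver EC 1 had 1550.0 FPKM of 7 epithelial genes, where the other libraries of its group had 29.8 and 10.5, and 2053 of 7 mesenchymal genes against 124.8 and 402.2. The 7 endothelial genes, among them Cdh5 and Pecam1, summed to 34.6 to 83.9 in both kinds of unconverted MACs and to 1937 to 18630.0 in the other groups. The mesenchymal genes summed to 2443 to 4703 in RACVECs and to 0.58 to 232.3 in Akt-RACVECs. The part of these cells in the differences below was not tested. Where values without a library are given, the LSEC and Akt-MAC libraries that remain still hold such RNA.

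The comparison of Akt-liver ECs with LSECs asks how liver ECs that grew in culture with Akt differ from those taken straight from the liver. Fasn, Me1, Scd2 and Elovl6 of fatty acid synthesis and Sqle, Lss and Mvd of sterol synthesis rose, and Ebp fell. In all, 7 of the 30 genes (23.3%) were called higher and 1 (3.33%) lower, where 14.1% of 14964 genes were called higher and 12.9% lower. Calls rest on limma, with a Benjamini-Hochberg adjusted p under 0.05 over these genes, together with a change of more than 1 in either direction on the scale log2(FPKM + 1), on which all fold changes are given. The median log2 fold change was 0.43 for the 30 genes and 0.08 for all. In 11 of them the 3 Akt-liver EC libraries were all above the 3 LSEC libraries and in 3 all below, against 27.7% and 24.9% of all genes.

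Of the fatty acid genes, 4 of 9 (44.4%) were called, all higher, where 14.1% of all genes were called higher. Fasn, the fatty acid synthase (mm9, chromosome 11, 120667254 to 120685492), had 7.24, 6.92 and 11.9 FPKM in LSECs and 271.2, 221.8 and 137.3 in Akt-liver ECs. The lowest cultured library was above the highest purified one by a wide margin. The means were 8.69 ± 2.80 and 210.1 ± 67.7 (SD, n = 3), a log2 fold change of 4.43 ± 0.42 (SE, limma adjusted p = 1.56e-07). Me1, the malic enzyme that supplies NADPH to this synthesis, had 13.3, 7.47 and 15.5 FPKM in LSECs and 118.5, 113.6 and 135.0 in Akt-liver ECs (log2 fold change 3.29 ± 0.38, limma adjusted p = 2.8e-06). These 2 genes had the largest changes of the 30, and both also met the criterion of the study's own methods, which takes an unadjusted p. Scd2 had 100.1, 81.6 and 64.2 FPKM in LSECs and 322.8, 285.4 and 603.7 in Akt-liver ECs (2.23 ± 0.59, limma adjusted p = 0.00682). Elovl6, which lengthens palmitate, had 7.80, 5.01 and 7.04 against 35.0, 22.6 and 45.6 (2.18 ± 0.66, limma adjusted p = 0.0162). In both genes the groups did not overlap. Acaca, at 5.99 to 7.49 against 13.0 to 14.9 FPKM, passed the adjusted p (0.0483 by limma) and missed the fold (0.94 ± 0.36). Acly had 224.6 to 230.9 FPKM in LSECs and 302.1 to 376.4 in Akt-liver ECs, with no overlap (0.53, limma adjusted p = 0.148). Lpin1, a phosphatidate phosphatase of triglyceride synthesis, had the same level on both sides, at 32.1 ± 4.7 in LSECs and 32.8 ± 8.6 in Akt-liver ECs (SD, n = 3). Acss2, which makes acetyl-CoA from acetate, went the other way with 27.8, 29.3 and 50.2 FPKM in LSECs and 12.3, 7.40 and 7.89 in Akt-liver ECs, and was not called (-1.83 ± 0.77, limma adjusted p = 0.0748).

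**Figure D2:**
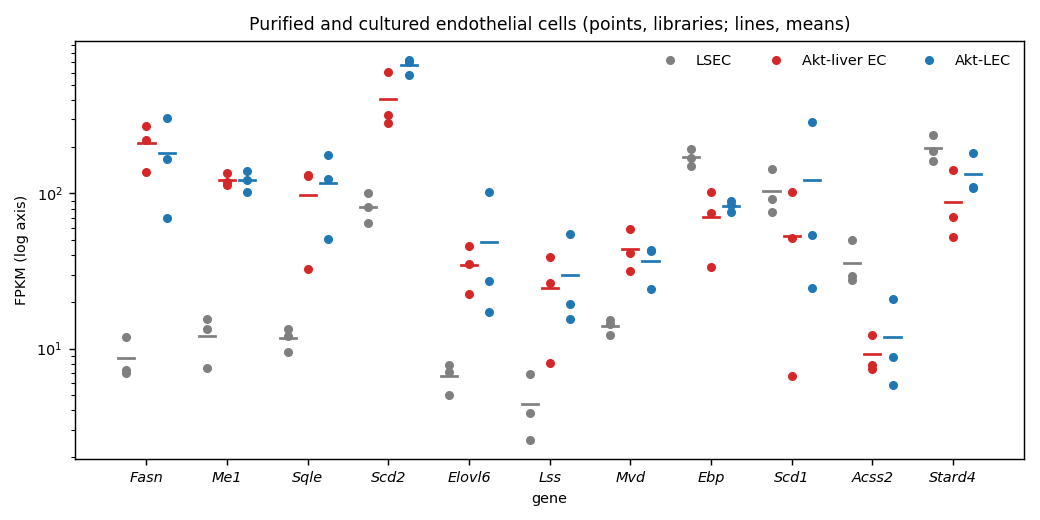
FPKM (log axis) of 11 genes in LSECs, Akt-liver ECs and Akt-LECs, with 1 point per library and a line at the mean. Fasn was at 6.92 to 11.9 in LSECs and at 69.7 or more in each cultured library, and Ebp was at 150.2 or more in LSECs and at 102.7 or less in the cultured ones.

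Of the 17 sterol enzymes, 3 were called higher and 1 lower. Called higher were 18.2% of the squalene to cholesterol enzymes and 16.7% of the mevalonate enzymes, near the 14.1% of all genes. Called lower were 9.09% and 0% of these, where 12.9% of all genes were. Sqle, squalene epoxidase, an oxygen-dependent and rate-limiting step (mm9, chromosome 15, 59146632 to 59162747), had 12.1, 9.47 and 13.3 FPKM in LSECs and 129.6, 32.4 and 131.3 in Akt-liver ECs (log2 fold change 2.73 ± 0.63, limma adjusted p = 0.00249). Lss, which closes the rings to lanosterol, had 3.82, 2.59 and 6.82 against 38.9, 8.12 and 26.5 (2.07 ± 0.73, limma adjusted p = 0.0348). Mvd, the decarboxylase that ends the mevalonate steps, had 14.4, 12.2 and 15.3 against 41.5, 31.5 and 59.2 (1.55 ± 0.48, limma adjusted p = 0.0184). The 3 genes had no overlap, and Akt-liver EC 2 was the lowest cultured library in each. Ebp, a sterol isomerase near the end of the pathway, was the only gene called lower, with 169.5, 150.2 and 192.3 FPKM in LSECs and 102.7, 33.8 and 74.9 in Akt-liver ECs (-1.40 ± 0.34, limma adjusted p = 0.00393). Without Akt-liver EC 2 the call on Ebp was lost, at a log2 fold change of -0.95. Other steps did not pass. Log2 fold changes of Cyp51 (1.11), Hsd17b7 (1.33), Fdft1 (0.76), Nsdhl (0.06), Msmo1 (-0.25), Dhcr7 (-0.14) and Idi1 (-0.33) had adjusted p from 0.0722 to 0.953 by limma. Among the others, Mvk, Pmvk, Fdps, Acat2, Sc5d and Tm7sf2 had log2 fold changes from -0.73 to 0.45.

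Of the regulators, Srebf2 had 82.0, 80.1 and 70.2 FPKM in LSECs and 168.2, 115.2 and 197.0 in Akt-liver ECs, and Srebf1 had 66.3, 70.6 and 66.8 against 105.9, 99.6 and 100.4. Neither pair of groups overlapped, and neither gene was called (1.01 ± 0.52 and 0.58 ± 0.25, limma adjusted p = 0.145 and 0.0796). Insig1, itself a target of SREBP-2, overlapped with 107.8 to 151.7 in LSECs and 24.3 to 149.3 in Akt-liver ECs. Stard4, a carrier of cholesterol between membranes, had 239.4, 162.2 and 187.8 FPKM in LSECs and 70.8, 52.5 and 142.4 in Akt-liver ECs, with no overlap and no call (-1.25 ± 0.56, limma adjusted p = 0.0928). Within each library, Srebf2 minus Srebf1 on the log2 scale was 0.18 ± 0.11 in LSECs and 0.61 ± 0.38 in Akt-liver ECs (SD, n = 3, exact two-sided permutation test p = 0.2, where 0.1 is the smallest possible).

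The 3 red cell genes summed to 10270.0 to 10900.0 FPKM in LSECs and to at most 1.07 in Akt-liver ECs, and genes of dividing cells summed to 44.3 to 240.0 FPKM in LSECs and to 247.3 to 1076 in Akt-liver ECs. Without LSEC 3, the library with the most hepatocyte RNA, the same 7 genes were called higher and Ebp lower. LSEC 1 and LSEC 2, which remain in that fit, had 4411 and 2989 FPKM of hepatocyte genes. They had 26260 and 22990 FPKM of macrophage genes, where LSEC 3 had 15990. The part of these cells was therefore not tested. Without Akt-liver EC 1, the call on Lss was lost, and 6 were called higher and Ebp lower. Without LSEC 2 or without Akt-liver EC 3, only Fasn, Me1, Scd2 and Sqle of the 7 were called. In bulk RNA, fewer cells of a type and less RNA per cell cannot be told apart.

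Scd1, the isoform typical of liver and fat, had 91.9, 75.7 and 144.1 FPKM in LSECs and 101.9, 6.70 and 52.0 in Akt-liver ECs. It overlapped between the groups and was not called (-1.54, limma adjusted p = 0.237). Scd2 minus Scd1 within each library was 0.12, 0.11 and -1.15 on the log2 scale in LSECs and 1.65, 5.22 and 3.51 in Akt-liver ECs. The lowest LSEC value was that of LSEC 3, which has the most hepatocyte RNA. All cultured libraries lay above all purified ones, with a difference of means of 3.77 and an exact two-sided permutation p of 0.1, the smallest that 3 against 3 allows, so that no threshold of 0.05 can be passed. As a description of the other groups, the difference was 0.35 ± 1.17 in MACs, 1.83 ± 0.24 in Akt-MACs, 2.16 ± 0.38 in RACVECs, 2.33 ± 0.66 in Sox17-RACVECs, 3.18 ± 1.78 in Akt-LECs and 3.85 ± 0.42 in Akt-RACVECs (SD, n = 3). MAC 2, which has the adipocyte RNA, was lowest of the MACs at -0.80.

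**Figure D3:**
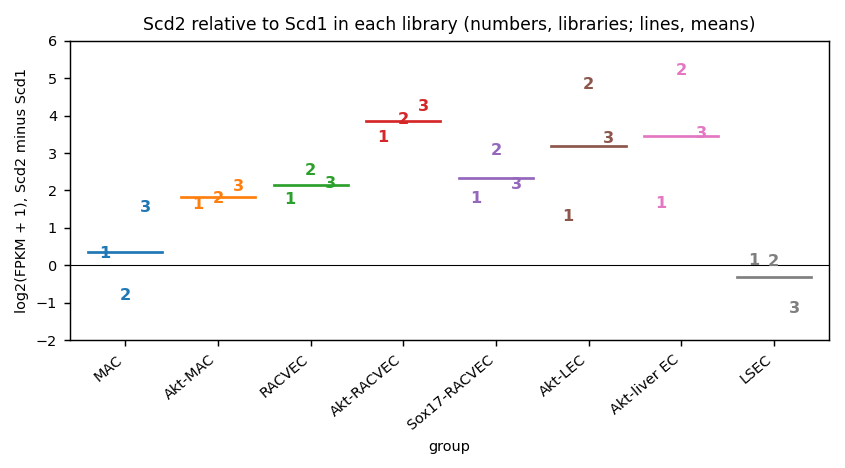
Scd2 minus Scd1 as log2(FPKM + 1) in each library, printed as its replicate number, with a line at the mean of the group. LSECs lie between -1.15 and 0.12, and Akt-liver ECs between 1.65 and 5.22.

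RACVECs against MACs compare converted with unconverted cells, and Akt-RACVECs against Akt-MACs do so in cells that carry Akt on both sides. The latter comparison was added after the data had been seen, and shares no library with the former. The study's methods give AmnioMAX for MACs before conversion and EC medium for converting cells. The medium of the MAC and Akt-MAC libraries is not stated apart, so the parts of factors and medium cannot be told apart. In RACVECs 1 of the 30 genes (3.33%) was called lower and 0 higher, where 1.35% of all genes were lower and 1.36% higher. With the p left unadjusted and the same fold, 5 were lower and 0 higher, where 1070 and 815 of all 14964 genes were. In Akt-RACVECs 9 (30%) were called lower and 1 (3.33%) higher, where 13.4% of all genes were lower and 6.15% higher. The median log2 fold change of the 30 genes was -0.45 and -0.74, and that of all genes 0 and -0.09. The log2 fold change was negative in both comparisons for 25 of the 30 genes, and for 36.3% of all genes. The 30 genes varied together between libraries, as given below, so these signs are not independent.

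Lpin1 was the gene called in both. It had 80.2, 87.9 and 50.8 FPKM in MACs and 23.0, 22.6 and 22.1 in RACVECs (log2 fold change -1.61 ± 0.30, limma adjusted p = 0.00497). In Akt-MACs it had 50.5, 55.8 and 39.2 FPKM and in Akt-RACVECs 14.6, 18.9 and 11.8 (-1.63 ± 0.30, limma adjusted p = 0.0012). The converted libraries were below the unconverted ones in both sets, and each of the fits that left out 1 library kept both calls. In the fit of only the groups compared, the call in RACVECs was lost (limma adjusted p = 0.108) and that in Akt-RACVECs was kept (0.039). With the replicate number as a block both were lost (limma adjusted p = 0.262 and 0.106). Acss2 had 52.8, 78.5 and 46.5 FPKM in MACs and 50.5, 4.57 and 8.53 in RACVECs, and was not called there (-2.07 ± 0.77, limma adjusted p = 0.149). RACVEC 1 alone overlapped with the MACs. In Akt-MACs Acss2 had 66.7, 220.8 and 16.98 FPKM and in Akt-RACVECs 6.13, 2.46 and 2.54 (-3.86 ± 0.77, limma adjusted p = 0.00229). Me1 had 214.4, 515.0 and 148.6 in Akt-MACs and 96.7, 100.2 and 78.6 in Akt-RACVECs (-1.47 ± 0.38, limma adjusted p = 0.0112). Me1 did not overlap between these groups, but its level in Akt-MAC 2 was far above the other libraries. Scd1 had 473.4, 1739.5 and 411.5 FPKM in MACs and 267.8, 59.5 and 66.4 in RACVECs. In Akt-MACs it had 457.7, 336.4 and 61.4 FPKM and in Akt-RACVECs 51.9, 67.3 and 24.2. Scd1 was not called in either comparison, at -2.76 ± 0.98 and -2.24 ± 0.98 (limma adjusted p = 0.131 and 0.102). The largest upward differences beside Stard4 were those of Acaca, at 8.5, 23.8 and 12.8 FPKM in MACs and 18.7, 19.8 and 15.1 in RACVECs (0.34), and of Fasn, at 96.1, 82.6 and 83.5 in Akt-MACs and 142.1, 194.2 and 84.9 in Akt-RACVECs (0.60). Neither was called.

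Among the sterol enzymes, 6 of the 11 from squalene to cholesterol (54.5%) were called lower in Akt-RACVECs, against 13.4% of all genes. Of the 6 mevalonate enzymes 0 were called, but all 6 had a negative log2 fold change. The median was -0.62 for the mevalonate enzymes, -1.45 for the 11 and -0.09 for all genes. In 4 of the 6 mevalonate enzymes all Akt-RACVEC libraries were below all Akt-MAC libraries, against 22% of all genes. Tm7sf2, a sterol reductase, had 58.0, 56.9 and 37.0 FPKM in Akt-MACs and 7.73, 3.24 and 19.6 in Akt-RACVECs (-2.47 ± 0.64, limma adjusted p = 0.0103). Hsd17b7, a keto reductase of the demethylation steps, had 105.4, 56.7 and 56.4 against 15.5, 21.7 and 9.58 (-2.16 ± 0.56, limma adjusted p = 0.0106). Msmo1, which oxidises the methyl groups, had 289.0, 221.8 and 366.8 against 73.8, 106.3 and 71.8 (-1.78 ± 0.58, limma adjusted p = 0.0322). In each of the 3 the groups did not overlap. Nsdhl, which removes a carboxyl group in the demethylation steps, had 119.9, 71.1 and 76.7 FPKM against 28.8, 34.5 and 30.1 (-1.46 ± 0.49, limma adjusted p = 0.0389). Sc5d, a sterol desaturase, had 103.2, 131.7 and 177.2 against 59.0, 58.1 and 45.3 (-1.30 ± 0.46, limma adjusted p = 0.0451). Lss had 39.6, 37.7 and 47.2 against 17.5, 11.8 and 3.56 (-2.05 ± 0.73, limma adjusted p = 0.0492). These groups did not overlap either, but the 3 adjusted p lie near the threshold. In the RACVECs, the same 6 genes had log2 fold changes of -1.99 (Tm7sf2), -1.34 (Hsd17b7), -1.09 (Msmo1), -0.49 (Nsdhl), -0.12 (Sc5d) and -0.70 (Lss), and were not called. Of the 30 genes, 15 were lower in every Akt-RACVEC library than in every Akt-MAC library and 2 higher, against 22% and 15.3% of all genes. Akt-MAC 2 and Akt-MAC 3 hold most of the macrophage RNA, and Akt-MAC 1 has 965.9 FPKM of the summed macrophage genes. Without Akt-MAC 2 and Akt-MAC 3, only Akt-MAC 1 is left in its group, and effect sizes alone are given. The log2 fold changes were then 2.99 for Stard4, -3.93 for Acss2 and -1.70 for Lpin1. Those of the other 7 genes called lower above ran from -2.75 (Hsd17b7) to -0.93 (Sc5d).

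Stard4 was the gene called higher. It had 12.4, 20.2 and 54.1 FPKM in Akt-MACs and 83.0, 175.2 and 79.8 in Akt-RACVECs (2.09 ± 0.56, limma adjusted p = 0.013), and 22.04, 40.3 and 19.4 in MACs against 58.7, 47.4 and 17.7 in RACVECs (0.49 ± 0.56, limma adjusted p = 0.687). The groups overlapped only in the latter pair. Its mean over the groups was lowest in MACs at 27.3 ± 11.4 and highest in LSECs at 196.5 ± 39.3 (SD, n = 3). The call was lost without Akt-MAC 1, without Akt-MAC 2 and without Akt-RACVEC 2.

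**Figure D4:**
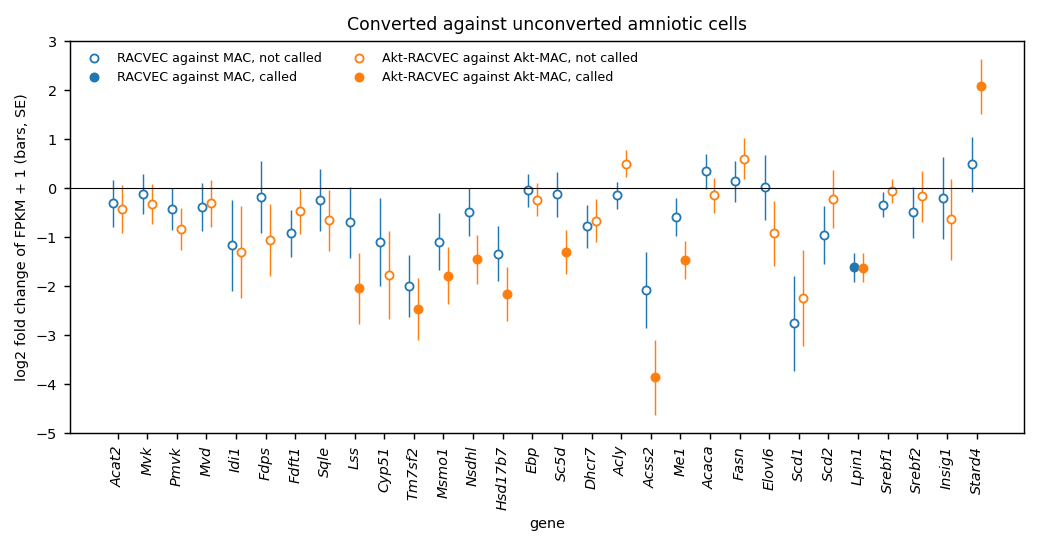
Log2 fold change of FPKM + 1 (bars, SE) of the 30 genes in RACVECs against MACs (blue) and in Akt-RACVECs against Akt-MACs (orange), filled where called. Lpin1 is filled in both at -1.61 and -1.63, and Stard4 is the filled point above 0 at 2.09.

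Myristoylated Akt was compared within MACs and within RACVECs. In Akt-MACs against MACs, 0 of the 30 genes were called higher or lower, where 2.59% of all genes were higher and 0.214% lower. With the p left unadjusted, 0 were higher and 1 lower, where 1128 and 327 of all 14964 genes were. In Akt-RACVECs against RACVECs 0 were called as well, where 0.221% of all genes were higher and 0.0401% lower. With the p left unadjusted, 1 was higher and 5 were lower, where 717 and 784 of all 14964 genes were. The log2 fold change was negative for 25 of the 30 genes in each comparison. The medians were -0.23 and -0.54, with 0.09 and 0 for all genes. MAC 2 was the highest MAC library in 26 of the 30 genes and RACVEC 1 the highest RACVEC library in 27. The signs of the genes are therefore not independent, and they were not counted without these libraries. For the mean of both Akt effects, 1 gene was called lower and 0 higher, where 0.334% and 1.36% of all genes were. This was Elovl6, which had 50.1, 106.5 and 36.5 FPKM in MACs and 25.6, 25.6 and 14.2 in Akt-MACs. In RACVECs it had 82.8, 84.8 and 29.1 FPKM and in Akt-RACVECs 19.4, 13.7 and 4.27. In both cell types all Akt libraries were below all others, and the mean log2 fold change was -1.89 ± 0.47 (limma adjusted p = 0.0425). The call was lost in 8 of the 12 fits that left out 1 library and without Akt-MAC 2 and 3, while the log2 fold change stayed between -2.14 and -1.61 in the former and was -1.76 in the latter. Within each cell type it was -1.42 ± 0.66 and -2.37 ± 0.66 (limma adjusted p = 0.348 and 0.0989). Scd1 had the largest difference downwards in MACs (-1.71), and Lss followed Elovl6 in RACVECs (-1.68), with 93.2, 16.5 and 20.3 FPKM in RACVECs and 17.5, 11.8 and 3.56 in Akt-RACVECs. Upwards, Stard4 was the largest in RACVECs, with no overlap (1.49 ± 0.56, limma adjusted p = 0.202). Scd2 followed with 915.5, 348.0 and 302.7 FPKM in RACVECs and 564.4, 1017.2 and 478.0 in Akt-RACVECs (0.50). In MACs, Me1 had 296.6, 135.3 and 166.1 FPKM and differed by 0.43 with Akt, and Sc5d had 84.4, 186.9 and 75.2 and differed by 0.34. Neither passed, and both overlapped with the Akt-MACs. In the mean of both effects, Stard4 (0.69) and Ebp (0.19) were the largest upwards and Scd1 (-1.46) followed Elovl6 downwards. Ebp had 41.6, 79.7 and 54.7 FPKM in MACs, 74.4, 49.98 and 89.3 in Akt-MACs, 66.7, 56.0 and 44.5 in RACVECs and 60.6, 42.8 and 78.0 in Akt-RACVECs.

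The Akt effects in the 2 cell types were not shown to differ for any of the 30 genes. The interaction called 0 of them, where 0.00668% of all genes were called higher and 0.0936% lower. At an unadjusted p with the fold, 462 of all 14964 genes were higher and 1054 lower, and 0 of the 30 passed. The largest were Acss2 at -1.79 ± 1.09 and Stard4 at 1.60 ± 0.79 (limma adjusted p = 0.546 and 0.439), followed by Lss at -1.35 and Scd2 at 0.74, where the median of all genes was -0.12. Scd2 had 584.9, 1000.9 and 1204.5 FPKM in MACs and 1400.1, 1159.0 and 265.3 in Akt-MACs. The summed mesenchymal genes were lower in each Akt-RACVEC library than in each RACVEC library, and the summed macrophage genes higher in each Akt-MAC library than in each MAC library.

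Addition of Sox17 to RACVECs left 0 of the 30 genes called, where 0% of all genes were called higher and 0.00668% lower. With the p left unadjusted, 3 were lower and 0 higher, where 506 and 198 of all 14964 genes were. The median of the 30 genes was -0.75 where that of all genes was -0.02. Acss2 had 3.06, 4.40 and 1.92 FPKM in Sox17-RACVECs (-1.81 ± 0.77, limma adjusted p = 0.699) and Cyp51, the lanosterol demethylase, 10.2, 18.0 and 18.5 against 176.0, 29.9 and 19.5 in RACVECs (-1.58 ± 0.90, limma adjusted p = 0.831). RACVEC 1 was by far the highest of those for both. The largest upwards were Fasn, with 200.2, 145.2 and 250.8 FPKM against 140.6, 199.9 and 115.8 in RACVECs (0.39), and Stard4, with 24.8, 90.1 and 45.1 (0.34). Both overlapped between the groups.

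Akt-LECs against Akt-liver ECs compare the organs of origin under the same culture. Of the 30 genes 0 were called, where 0% of all genes were called higher and 0.0134% lower. With the p left unadjusted, 250 of all 14964 genes were lower and 167 higher, and 1 of the 30 was lower. This was Lpin1, with 14.8, 14.4 and 8.77 FPKM in Akt-LECs and 36.8, 38.6 and 23.0 in Akt-liver ECs, with no overlap (-1.31 ± 0.30, limma adjusted p = 0.429). The other large differences were Scd1, with 287.6, 24.5 and 54.0 FPKM in Akt-LECs (1.09), Idi1, with 109.4, 89.5 and 30.8 against 87.4, 6.67 and 61.1 (0.97), and Fasn, with 308.4, 69.7 and 166.9 in Akt-LECs (-0.40). In these 3 genes the groups overlapped.

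The genes varied together between the libraries of a group. The SEs above rest on the variance of each gene within all 8 groups, not only within those compared. MAC 2 was the highest of the 3 MAC libraries in 16 of the 17 sterol genes and in 26 of all 30, while it was the highest in 27.5% of all genes. RACVEC 1 was the highest in 17 of 17 and 27 of 30, against 22.5% of all genes. Akt-liver EC 2 was the lowest in 17 of 17 and 27 of 30, against 38.4%. Akt-LEC 1 was the highest in 14 of 17, against 38.7%, and Akt-LEC 3 the lowest in 15 of 17 and 20 of 30, against 29%. LSEC 2 was the lowest in 14 of 17 and 20 of 30, against 39.7%. The file headers of MAC 2 and RACVEC 1 both carry the number 3, and what it marks is not stated. A pairing by these header numbers was not tested. Idi1, which opens the isoprenoid steps, ranged within RACVECs over 127.5, 26.8 and 6.15 FPKM, and Cyp51 within Akt-liver ECs over 89.8, 7.50 and 71.5. The median ratio of the highest to the lowest library over the 17 genes was 3.69 in RACVECs, 3.12 in Akt-LECs, 2.93 in Akt-liver ECs and 2.80 in MACs, against 1.61 in LSECs, 1.63 in Akt-MACs, 1.81 in Sox17-RACVECs and 1.82 in Akt-RACVECs. For all genes above 1 FPKM in each library it was 1.37 in LSECs and from 1.62 to 1.71 in the other groups.

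Other RNA also differed between the libraries at the ends of their groups. MAC 2 held the adipocyte genes. RACVEC 1 had the most mesenchymal genes of the RACVECs (4703 FPKM) and the fewest endothelial (1937). Akt-LEC 1 had 3313 FPKM of mesenchymal genes where Akt-LEC 2 and 3 had 25.6 and 80.9. Akt-LEC 1 also had 1608 FPKM of macrophage genes, where Akt-LEC 2 and 3 had 2.09 and 18.6. Its epithelial genes summed to 182.3 FPKM, where those of Akt-LEC 2 and 3 summed to 6.75 and 2.56. Akt-liver EC 2 had the fewest genes of dividing cells of its group, 247.3 against 835.4 and 1076. What part these had in the sterol values was not tested. Without RACVEC 1, 3 of the 30 genes were called lower in RACVECs against MACs, Lpin1, Acss2 and Tm7sf2, where 170 of all 14964 genes were.

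**Figure D5:**
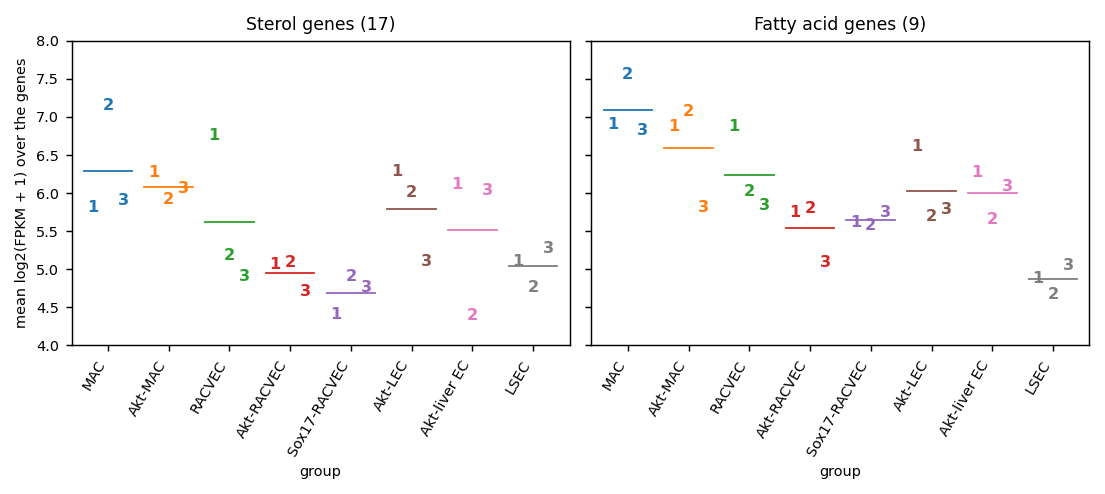
Mean log2(FPKM + 1) over the 17 sterol enzymes (left) and the 9 fatty acid enzymes (right) in each library, printed as its replicate number, with a line at the mean of the group. The sterol mean was 7.15 in MAC 2 and 6.75 in RACVEC 1, where the other libraries of those groups were at 5.90 or less, and 4.40 in Akt-liver EC 2.

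Genes around the pathway were counted in the same way. Of 18 other synthesis genes, 2 (11.1%, against 14.1% of all genes) were called higher and 0 lower in Akt-liver ECs, Aacs, which makes acetoacetyl-CoA for sterols (170.3 ± 26.2 against 32.5 ± 3.35 FPKM, SD, n = 3), and Elovl7, a fatty acid elongase (23.8 ± 5.9 against 1.45 ± 0.07), and 0 in each of the other comparisons. Of 7 genes that process SREBPs, 2 (28.6%, against 13.4% of all genes) were lower in Akt-RACVECs than in Akt-MACs, Scap (-1.57), which escorts SREBPs, and Insig2 (-1.01), and 0 were called elsewhere. Of 10 genes of sterol efflux, storage and the LXR response, 3 (30%, against 12.9% of all genes) fell in Akt-liver ECs against LSECs, namely Mylip (-5.02), Nr1h3 (-2.50) and Lipa (-1.75). Lipa (2.50) and Soat1 (1.53) rose in Akt-MACs against MACs, 20% of the list where 2.59% of all genes rose. In Akt-RACVECs against Akt-MACs 5 (50%) fell and 1 (10%), Scarb1 (1.46), rose, where 13.4% of all genes fell and 6.15% rose. Lipa and Nr1h3 are also expressed in macrophages, and the summed macrophage genes were lower in Akt-liver ECs, higher in Akt-MACs and lower in Akt-RACVECs in these comparisons. Of 12 genes of fatty acid oxidation and uptake, Acadm (-1.10) fell in Akt-liver ECs, 8.33% of the list against 12.9% of all genes. Fabp4 (4.70) rose and Cd36 (-6.50) and Lpl (-5.54) fell in Akt-RACVECs against Akt-MACs, 8.33% and 16.7% of the list against 6.15% and 13.4%. In Akt-MACs, which hold macrophage RNA, Cd36 had 816.7 ± 799.1 FPKM and Lpl 1167 ± 1343 (SD, n = 3). In Akt-RACVECs they had 3.79 ± 3.41 and 8.97 ± 1.48. The part of the macrophage RNA in these differences was not tested.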

How the data were processed

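Per the labels and the study's methods, polyA RNA was sequenced from TruSeq libraries and the authors aligned reads to mm9 using TopHat. The authors deposited FPKM from Cufflinks (upper-quartile scaling, sequence bias corrected), as 1 value for each of 27583 RefSeq transcripts. Versions are not given in the sources used here. Read numbers are not used, so depth is unknown and no counting error is given, and precision is that between 3 libraries. Transcripts of a symbol were summed (26930 had a symbol, 22282 genes in all). Tests were made on log2(FPKM + 1) by limma 3.58.1 (R 4.3.3), in 1 fit of 8 groups with a trend in the variances, two-sided, with Benjamini-Hochberg adjustment over 14964 genes whose mean FPKM was 1 or more. The procedure was tested on simulated data. Permutation tests used scipy 1.17.1. The median log2 fold change of all genes lay between -0.12 and 0.09 over the comparisons. Promoters are RefSeq sequences of GRCm38.p6 and gene positions those of GENCODE M1 on mm9.

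All 31 genes are named. Those called, and in each comparison the 2 largest differences in each direction, are given with the value in every library of the groups compared. The genes, lists and tests were chosen with earlier results of these data known. Alternatives were other pseudocounts, filters, fits, scaling, transcripts kept apart, the criterion of the study's methods (a log2 ratio of mean FPKM past 1 and an unadjusted Welch p) and leaving out libraries. The labels' replicate numbers were not used to pair libraries, since deviations of same-numbered libraries did not correlate above 0.1 in every pair of any comparison. This rule does not show that no libraries are paired. In Akt-LECs against Akt-liver ECs the correlations were 0.571, 0.366 and -0.05, and in the other comparisons they ran from -0.2 to 0.206.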

Additional observations from a re-analysis of the deposited data

How the results depend on the processing

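The counts of genes called in Akt-liver ECs against LSECs kept within 1.5 times of 7 higher and 1 lower under other pseudocounts, filters and scaling, and with transcripts kept apart. The criterion of the study's methods gave 2 higher and 2 lower there, and called 1 lower in Akt-LECs against Akt-liver ECs. Elovl6, the 1 gene called for the mean Akt effect, was lost (0 called) with a pseudocount of 10, with transcripts kept apart, in the fit of only the groups compared and without Akt-MAC 2 and 3. Lpin1 in RACVECs against MACs was lost (0 called) in the fit of only the groups compared, which left fewer libraries for the variance. In Akt-RACVECs against Akt-MACs that fit called 5 lower and 0 higher, and the criterion of the study's methods 5 lower and 0 higher. The fit without Akt-MAC 2 and 3 was chosen after seeing the data. It left only Akt-MAC 1 in that group, so its effect sizes alone are given above for this comparison.

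With the replicate number as a block, which the labels do not say pairs the libraries, 0 genes were called lower in Akt-liver ECs against LSECs and 6 higher, 0 lower in RACVECs against MACs, and 0 lower and 0 higher in Akt-RACVECs against Akt-MACs.

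Leaving out 1 library at a time gave 4 to 8 higher and 0 to 1 lower in Akt-liver ECs against LSECs, 1 to 3 lower in RACVECs against MACs, 4 to 6 lower and 0 to 1 higher in Akt-RACVECs against Akt-MACs, and 0 to 1 lower for the mean Akt effect. Differences of named genes that passed no test changed sign in 5 cases. Me1 in Akt-MACs against MACs ran from -0.08 to 0.82, Scd2 in the interaction from -0.01 to 1.24, Stard4 with Sox17 from -0.17 to 0.78, and in Akt-LECs against Akt-liver ECs Fasn ran from -0.90 to 0.17 and Idi1 from -0.12 to 1.64. Without Akt-MAC 2 and 3, Sc5d in Akt-MACs against MACs was -0.04 and Scd2 in the interaction -0.15. The cause of these changes was not tested. Depth is unknown, so low FPKM such as those of Acss2 and Lss carry an error that cannot be given.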
